A study of Mus musculus with 24 samples.

Results

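Insulin, IGF1 and IGF2 are related hormones that act through the insulin receptor and the type 1 IGF receptor, related tyrosine kinases that phosphorylate the adaptors IRS1 and IRS2. The adaptors recruit PI3 kinase, which activates AKT; AKT drives glucose uptake through the transporter GLUT4 and retains FOXO factors in the cytoplasm. A family of secreted IGF binding proteins holds the IGFs outside the cell and sets how much reaches the receptor. In preadipocytes IGF1 or a high dose of insulin is part of the adipogenic stimulus, and preadipocytes are known to signal largely through IGF1R, adipocytes through the insulin receptor. The genes described here are 10 members of this axis, taken by name from the 24346 genes and transcripts in the count files: the ligands Igf1 and Igf2, the receptors Insr and Igf1r, the adaptors Irs1 and Irs2, and the binding proteins Igfbp3, Igfbp4, Igfbp5 and Igfbp7. All 10 were among the 13356 genes with enough counts to be tested.

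RNA sequencing covered 12 libraries of 3T3-L1 cells, a mouse preadipocyte line that becomes fat cells in culture, at passages 13 to 18. Cells with the genotype label LSD1 overexpression (LSD1, encoded by Kdm1a, is a lysine demethylase of histones) and cells with the label control were each collected at day 7 and at day 0, which makes 4 groups of 3 biological replicates. Day 0 cells were confluent and undifferentiated. Day 7 cells had been induced at confluence with insulin at 10 µg/ml together with the PPARγ ligand rosiglitazone (10 µM), the phosphodiesterase inhibitor isobutylmethylxanthine (500 µM) and the glucocorticoid dexamethasone (1 µM), and were kept from day 3 in 10 µg/ml insulin, so day 7 and day 0 differ in added insulin as well as in time. The labels do not give the construct, its promoter, or whether the overexpressing cells are 1 clone or a pool. The study also deposited 4 lists of LSD1 ChIP-seq peaks and 2 lists of peaks of the transcription factor Nrf1, each from 1 sample.

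Library totals ran between 27512273 and 37565527 counts. Kdm1a averaged 54.7 ± 0.606 counts scaled to library size (CPM, counts per 1e6) in LSD1-labelled and 69.4 ± 4.5 CPM in control libraries at day 7, and 97.5 ± 7.47 CPM in LSD1-labelled and 83.1 ± 3.76 CPM in control libraries at day 0 (SD, n = 3 each). The targeted gene was thus lower in the LSD1-labelled libraries at day 7 (log2 fold change -0.34; edgeR's quasi-likelihood test, p-values adjusted over all tested genes by Benjamini and Hochberg's method; adjusted p = 0.00752) and did not pass at day 0 (0.23, adjusted p = 0.0968). This goes against the overexpression label at day 7; whether the construct is counted in this row was not tested, and every direction below is between libraries by their labels. Replicate 1 of the LSD1-labelled day 0 group stood apart, with log2 CPM correlations of 0.955 and 0.957 to its group against 0.993 between the other two, and 5 of the 10 genes differed there from the mean of the other libraries of the group by more than 1 on the log2 scale. Without it Kdm1a was higher in LSD1-labelled libraries at day 0 (0.29, adjusted p = 0.0131). Where leaving it out changed a call for one of the 10 genes, both results are given. The sum of 10 adipocyte markers was 26520 to 32260 CPM in LSD1-labelled and 9546 to 11250 CPM in control libraries at day 7, and 495 to 623 CPM in LSD1-labelled and 668 to 845 CPM in control libraries at day 0. The sum of 10 preadipocyte and fibroblast markers was 1264 to 1314 CPM in LSD1-labelled and 8451 to 8805 CPM in control libraries at day 7, and 14390 to 19160 CPM in LSD1-labelled and 34130 to 36690 CPM in control libraries at day 0. Single markers did not all follow these sums. Of 9 tested adipocyte markers, 7 were higher and 1 (Retn, -1.45, adjusted p = 0.00388) was lower in LSD1-labelled cells at day 7. Fabp4 alone averaged 13750 CPM in LSD1-labelled and 4349 CPM in control libraries at day 7. At day 0 Pdgfra of the fibroblast list was higher in LSD1-labelled cells (0.51, adjusted p = 0.00168), while Postn, Col3a1 and Col1a1 were lower. The sums move with every comparison below, and their part in the results was not tested. In bulk RNA, fewer cells of a type and less RNA per cell cannot be told apart. Markers of macrophages summed to at most 5.31 CPM with Adgre1 at 0 counts, markers of endothelium to at most 2.55 CPM, and the muscle regulators Myod1 and Myog were at 0 counts in all 12 libraries. The muscle list as a whole reached 44.1 CPM, and the bone or cartilage list reached 289.9 CPM with Acan at 0 counts.

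At day 7, 2 of the 10 genes were higher and 5 lower in LSD1-labelled than in control libraries at an adjusted p under 0.05, where 30.2% of all tested genes were higher and 33.4% lower. Igfbp4 and Irs2 were the higher ones; Igf1, Igf1r, Irs1, Igfbp3 and Igfbp7 were the lower ones. At day 0 edgeR called 0 higher (also 0 at an unadjusted p under 0.05 and 0 in DESeq2) and 4 lower (Igf1, Igf1r, Irs1 and Igfbp4), where 12.8% of tested genes were higher and 13.0% lower. Without replicate 1 of the LSD1-labelled day 0 group, 1 gene (Insr) was higher and 6 were lower at day 0, with Igf2 and Igfbp3 joining the lower ones, against 22.6% and 26.0% of tested genes. Between day 7 and day 0, 3 genes were higher and 5 lower in LSD1-labelled cells (background 32.6% and 37.2%), and 3 were higher and 3 lower in control cells (background 23.7% and 24.6%). The change over time differed between the labels for 5 genes, by the interaction of label and day, with 2 positive and 3 negative (background 23.9% and 28.1%). The median log2 fold change of the 10 genes between the labels was -1.01 at day 7, against -0.05 over all tested genes, and -1.05 at day 0, against 0.00.

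**Figure D1:**
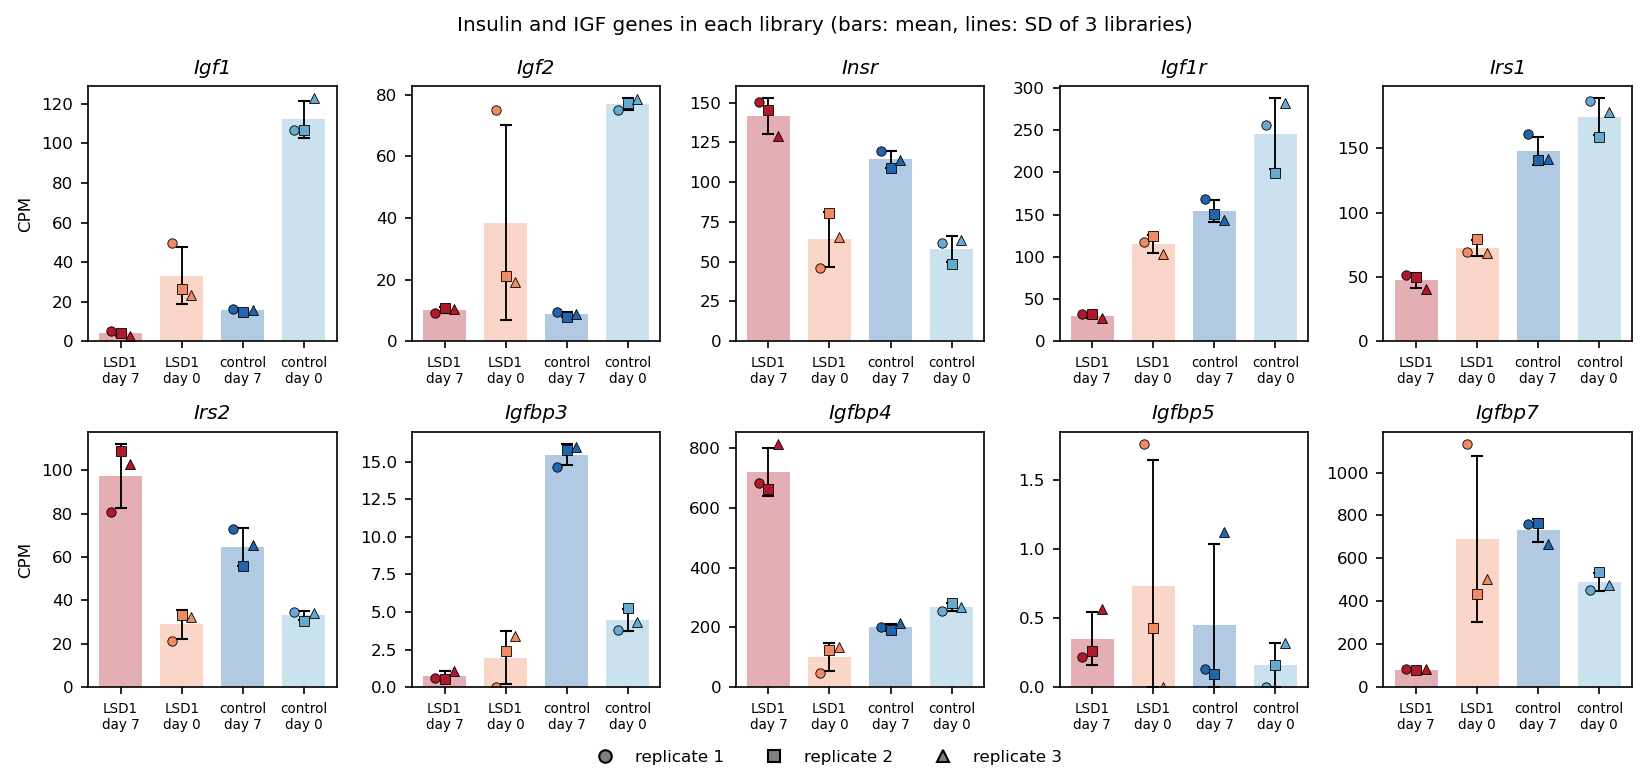
CPM (y axis, linear, from 0) of each of the 10 genes in the 4 groups; bars are means of 3 libraries, lines are SD cut at 0, and symbols mark replicates 1 to 3. Igf1 and Igf2 are low at day 7 under both labels, Igfbp4 is highest and Igfbp7 lowest in LSD1-labelled day 7 libraries, and replicate 1 of LSD1-labelled day 0 (circle) lies apart for Igf2 and Igfbp7.

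Both ligands were lower at day 7 than at day 0 under either label. Igf1, the IGF1 gene (chr10:87858265-87937047, GRCm38.p6), had 5.13, 4.34 and 2.54 CPM in LSD1-labelled day 7 libraries and 49.5, 26.6 and 23.3 CPM at day 0. In control libraries it had 16.2, 15.01 and 15.8 CPM at day 7 and 106.9, 106.7 and 122.9 CPM at day 0. None of these groups overlapped. Day 7 against day 0 gave -3.05 ± 0.293 (log2 fold change ± SE) in LSD1-labelled cells (adjusted p = 8.89e-07) and -2.84 ± 0.273 in control cells (adjusted p = 3.63e-06), and the interaction did not pass (-0.21, 95% interval -1.03 to 0.62, adjusted p = 0.669). Between the labels Igf1 was 3.92-fold lower in LSD1-labelled cells at day 7 (-1.97 ± 0.290, adjusted p = 6.3e-05) and 3.39-fold lower at day 0 (-1.76 ± 0.260, adjusted p = 0.000415). Without replicate 1 the day 0 difference was -2.17. All 4 Igf1 transcripts in the files share most of their reads, so their use of different first exons was not compared.

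Igf2, the gene of the fetal IGF2 that is imprinted in mouse tissues, had 9.04, 10.8 and 10.6 CPM in LSD1-labelled and 9.44, 7.92 and 8.82 CPM in control libraries at day 7. At day 0 it had 75.05, 21.1 and 19.2 CPM in LSD1-labelled and 74.9, 77.2 and 78.8 CPM in control libraries. The groups overlapped at both days, at day 0 through replicate 1 alone, which lay at the control level while the other two LSD1-labelled libraries lay below it. Igf2 fell with differentiation in LSD1-labelled cells (-1.92 ± 0.409, adjusted p = 0.000994) and in control cells (-3.14 ± 0.423, adjusted p = 6.29e-05), with an interaction of 1.22 that did not pass (adjusted p = 0.0876). Between the labels it did not pass at day 7 (0.22, interval -0.68 to 1.11) or at day 0 (-1.0, interval -1.84 to -0.17, adjusted p = 0.0757). Leaving out replicate 1 gave -1.93 at day 0 (adjusted p = 5.58e-11), -0.99 for day 7 against day 0 in LSD1-labelled cells (adjusted p = 2.04e-07) and an interaction of 2.15 (adjusted p = 3.9e-10). The Igf2 exons overlap those of Igf2os on the opposite strand, which had at most 0.425 CPM as a group mean; the counting's use of strand is not given in the sources used here. Per kilobase of transcript, the ligands together summed to 3.30 ± 0.193 CPM per kb in LSD1-labelled and 4.55 ± 0.288 in control libraries at day 7, and to 15.03 ± 10.55 in LSD1-labelled and 36.5 ± 1.75 in control libraries at day 0 (SD, n = 3 each). The LSD1-labelled day 0 sum was 27.2 in replicate 1 and 9.43 and 8.46 in the other two, which averaged 8.94 CPM per kb. Igf1 made up 17.0% ± 5.86 of that sum in LSD1-labelled and 48.3% ± 1.27 in control libraries at day 7, and 34.6% ± 7.86 in LSD1-labelled and 43.1% ± 1.53 in control libraries at day 0 (SD, n = 3 each). The insulin genes Ins1 and Ins2 had 1 count in all 12 libraries together.

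Over time the receptors moved in opposite directions under both labels, Insr up and Igf1r down. Insr, the insulin receptor (chr8:3150922-3279649), had 151, 145 and 129 CPM in LSD1-labelled and 119.6, 109 and 114 CPM in control libraries at day 7. The day 0 levels were 45.9, 80.7 and 65.7 CPM in LSD1-labelled and 61.65, 48.4 and 63.4 CPM in control libraries. Day 7 libraries lay above day 0 libraries under each label, by 1.14 ± 0.175 in LSD1-labelled cells (adjusted p = 6.81e-05) and 0.98 ± 0.175 in control cells (adjusted p = 0.000551), and the interaction did not pass (0.16, interval -0.37 to 0.69, adjusted p = 0.604). Between the labels the groups did not overlap at day 7 but the difference did not pass the test (0.31, interval -0.06 to 0.69, adjusted p = 0.133), and at day 0 they overlapped (0.15, interval -0.23 to 0.53). Without replicate 1 of LSD1-labelled day 0, which also enters the shared estimate of the spread, both passed, with 0.31 at day 7 (adjusted p = 0.0115) and 0.34 at day 0 (adjusted p = 0.0224).

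Igf1r, the type 1 IGF receptor (chr7:67952257-68233668), had 31.9, 31.9 and 27.4 CPM in LSD1-labelled and 168.5, 150.3 and 144 CPM in control libraries at day 7. At day 0 it had 118, 124 and 103 CPM in LSD1-labelled and 256, 199 and 281.5 CPM in control libraries. Every LSD1-labelled library was below every control library of its day. Igf1r was 5.08-fold lower in LSD1-labelled cells at day 7 (-2.34 ± 0.143, adjusted p = 2.53e-08) and 2.13-fold lower at day 0 (-1.09 ± 0.136, adjusted p = 0.00011). It fell between day 0 and day 7 by 1.92 on the log2 scale in LSD1-labelled cells (adjusted p = 6.26e-08) and by 0.67 in control cells (adjusted p = 0.00126), and the interaction was -1.25 ± 0.192 (adjusted p = 0.000151). Igf2r, the clearing receptor for IGF2 that has no kinase, averaged 127.8 CPM in LSD1-labelled and 430.7 CPM in control libraries at day 7, and 588.5 CPM in LSD1-labelled and 856.8 CPM in control libraries at day 0. It was also lower in LSD1-labelled cells, by -1.75 at day 7 and -0.54 at day 0 (adjusted p = 2.17e-06 and 0.034); the day 0 call was lost without any 1 control day 0 library (-0.60 to -0.50, adjusted p between 0.0554 and 0.109). Insrr, the third kinase of the family, had 0 counts in all libraries.

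Compared per kilobase, Insr made up 85.7% ± 0.257 of the sum of Insr and Igf1r in LSD1-labelled and 48.7% ± 1.45 in control libraries at day 7, and 41.2% ± 6.89 in LSD1-labelled and 23.2% ± 0.735 in control libraries at day 0 (SD, n = 3 each). In these units Igf1r exceeded Insr in control libraries at day 0, the receptors were close to equal in control libraries at day 7, and Insr exceeded Igf1r in LSD1-labelled libraries at day 7. The summed receptor level was 17.7 ± 1.40 CPM per kb in LSD1-labelled and 25.1 ± 1.54 in control libraries at day 7, and 16.5 ± 2.24 in LSD1-labelled and 26.7 ± 4.37 in control libraries at day 0. The sum differed less between the days than the share did.

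An LSD1 peak lay over the Igf1r start site in all 4 LSD1 lists, so its promoter is shown, 250 bases before the start to 50 bases after it (RefSeq, GRCm38.p6, chr7:67952007-67952306, plus strand). Capitals mark GGGCGG or its reverse complement CCGCCC, the GC box bound by SP1-type factors, which 35.6% of the 32817 promoter windows of the same length in the table hold on either strand.
Igf1r: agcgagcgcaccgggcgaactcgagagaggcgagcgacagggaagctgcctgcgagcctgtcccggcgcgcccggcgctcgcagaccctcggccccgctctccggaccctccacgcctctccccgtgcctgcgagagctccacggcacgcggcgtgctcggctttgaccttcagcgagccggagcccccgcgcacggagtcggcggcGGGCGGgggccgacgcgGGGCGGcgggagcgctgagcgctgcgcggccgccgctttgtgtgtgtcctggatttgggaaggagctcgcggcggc
The window holds 2 GC boxes and 48 CpG dinucleotides, against a median of 7 over all windows. A match of letters is a description of the window and not a binding site.

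**Figure D2:**
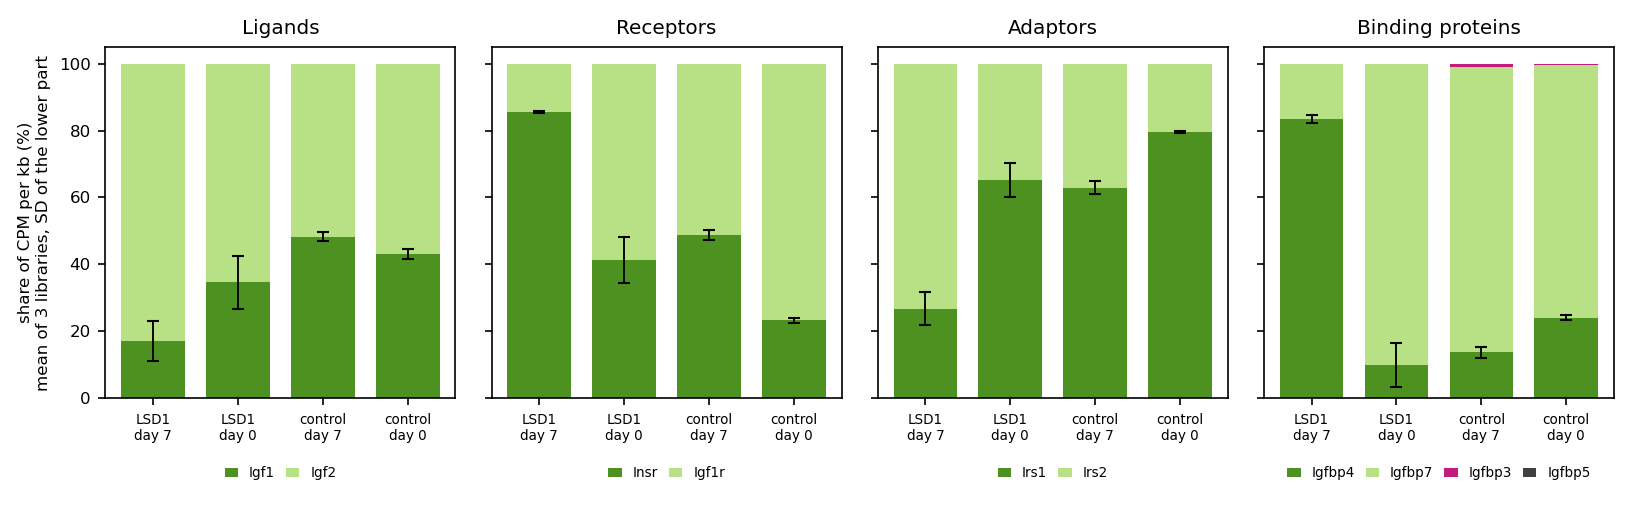
Share of the summed CPM per kb (y axis, percent) held by each gene within the ligands, receptors, adaptors and binding proteins among the 10 genes, in the 4 groups. Other genes of these families, such as Igfbp6, are not in the sums. Bars are means of 3 libraries and lines are the SD of the lower part. Insr holds 85.7% of the receptor sum in LSD1-labelled day 7 libraries and 23.2% in control day 0 libraries, and Igfbp4 holds 83.4% of the binding protein sum in LSD1-labelled day 7 libraries and at most 24.1% in the other groups.

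The adaptors moved in opposite directions over time in LSD1-labelled cells and between the labels at day 7. Irs1, the adaptor whose loss slows growth in mice, had 51.8, 49.8 and 40.9 CPM in LSD1-labelled and 161, 141 and 142 CPM in control libraries at day 7. The day 0 levels were 69.4, 79.8 and 68.4 CPM in LSD1-labelled and 187, 159 and 178 CPM in control libraries. LSD1-labelled libraries lay below control libraries at both days, 3.12-fold at day 7 (-1.64 ± 0.122, adjusted p = 1.38e-07) and 2.41-fold at day 0 (-1.27 ± 0.120, adjusted p = 1.55e-05). Irs1 fell over time in LSD1-labelled cells (-0.61 ± 0.119, adjusted p = 0.000493) and did not pass in control cells (-0.24, interval -0.49 to 0.01, adjusted p = 0.109). The interaction did not pass (-0.37, interval -0.73 to -0.01, adjusted p = 0.0794). Without replicate 1 of LSD1-labelled day 0, the control change (-0.24, adjusted p = 0.0393) and the interaction (-0.40, adjusted p = 0.0247) passed.

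Irs2, the adaptor that insulin itself represses through FOXO1 in liver, had 80.85, 108.7 and 103 CPM in LSD1-labelled and 72.9, 55.6 and 65.7 CPM in control libraries at day 7. At day 0 it had 21.2, 33.2 and 32.6 CPM in LSD1-labelled and 34.6, 30.7 and 34.2 CPM in control libraries. The labels did not overlap at day 7 and overlapped at day 0. Irs2 rose over time in LSD1-labelled cells (1.75 ± 0.179, adjusted p = 1.67e-06) and in control cells (0.97 ± 0.176, adjusted p = 0.000655). It was higher in LSD1-labelled cells at day 7 (0.59 ± 0.174, adjusted p = 0.00988), with an interaction of 0.78 ± 0.247 (adjusted p = 0.0178). Without replicate 2 of LSD1-labelled day 7 neither passed (0.49, adjusted p = 0.0517, and 0.68, adjusted p = 0.0535), and with library totals as the only scaling they were 0.34 (adjusted p = 0.123) and 0.38 (adjusted p = 0.247). The exons of 9530052E02Rik overlap Irs2 on the opposite strand and averaged at most 2.45 CPM in any group. Irs2 held 73.2% ± 4.87 of the per-kilobase sum of both adaptors in LSD1-labelled and 37.0% ± 2.02 in control libraries at day 7, and 34.7% ± 5.09 in LSD1-labelled and 20.4% ± 0.379 in control libraries at day 0. Of the other adaptors, Irs3 had 64 counts in LSD1-labelled day 7 libraries and at most 8 in any other group, and Irs4 had 0.

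Both adaptor promoters lay under LSD1 peaks at day 7, and both hold an E-box (CACGTG) beside the heptamer CAAAACA, here on the other strand as TGTTTTG. The heptamer is part of the insulin response sequence known from FOXO-bound promoters. The windows run from 250 bases before to 50 bases after the start site, on the minus strand (RefSeq, GRCm38.p6, Irs1 at chr1:82291390-82291689 and Irs2 at chr8:11008880-11009179). Capitals mark the E-box and the heptamer; in Irs1 they share bases.
Irs1: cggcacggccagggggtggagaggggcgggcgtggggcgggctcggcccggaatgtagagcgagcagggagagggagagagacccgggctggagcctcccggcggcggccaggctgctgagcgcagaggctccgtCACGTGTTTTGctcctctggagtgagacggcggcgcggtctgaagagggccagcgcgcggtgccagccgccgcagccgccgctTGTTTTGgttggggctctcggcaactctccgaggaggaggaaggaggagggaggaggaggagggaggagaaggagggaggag
Irs2: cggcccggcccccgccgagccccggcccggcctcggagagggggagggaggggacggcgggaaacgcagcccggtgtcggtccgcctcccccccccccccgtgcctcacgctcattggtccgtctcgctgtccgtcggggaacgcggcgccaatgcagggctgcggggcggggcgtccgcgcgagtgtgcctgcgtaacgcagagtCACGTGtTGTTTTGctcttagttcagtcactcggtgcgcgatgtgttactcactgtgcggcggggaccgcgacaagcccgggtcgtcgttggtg
In Irs1 the E-box begins 115 bases before the start site and the heptamers 111 and 32 bases before it; in Irs2 the E-box begins 44 bases and the heptamer 37 bases before it. Of the 32817 windows, 7.15% held the E-box, 6.29% the heptamer on either strand and 0.408% both. Among the motifs searched, a joint share was computed for this pair alone, which both adaptor windows hold, so it is no test of the pair. It counts windows with both at any distance. As above, matched letters are not a binding site. The forkhead sequence GTAAACA was searched on both strands, occurs in 3.65% of windows, and is in no member's window among the 9 members with a RefSeq promoter. The table used has no window for Insr.

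Igfbp3 and Igfbp7 had the largest fold differences between the labels of the 10 genes at day 7, and Igfbp4 the largest of those that were higher. Igfbp4, an inhibitory binding protein that is cleaved by the protease PAPP-A, had 683, 665 and 814 CPM in LSD1-labelled and 199.8, 189.8 and 213.5 CPM in control libraries at day 7. The day 0 levels were 48.0, 123.5 and 134 CPM in LSD1-labelled and 255, 282 and 269 CPM in control libraries. LSD1-labelled libraries thus lay above control libraries at day 7 and below them at day 0, without overlap on either day. Igfbp4 was 3.58-fold higher in LSD1-labelled cells at day 7 (1.84 ± 0.276, adjusted p = 7.46e-05) and 2.64-fold lower at day 0 (-1.40 ± 0.273, adjusted p = 0.00274). Over time it rose 7.06-fold in LSD1-labelled cells (2.82 ± 0.287, adjusted p = 1.54e-06) and did not pass in control cells (-0.42, interval -1.0 to 0.16, adjusted p = 0.217), and the interaction was 3.24 ± 0.389 (adjusted p = 2.02e-05). Replicate 1 was the lowest day 0 library; without it the day 0 difference was -1.06 (adjusted p = 4.41e-08), the interaction was 2.9 and the control change passed (-0.42, adjusted p = 0.000345). Fitted on the 6 day 0 libraries alone, the day 0 difference was -1.36 with an adjusted p of 0.0543.

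Igfbp7, a secreted low-affinity IGF binder, had 83.3, 79.5 and 83.2 CPM in LSD1-labelled and 758, 766 and 668 CPM in control libraries at day 7. At day 0 it had 1133, 433 and 504.5 CPM in LSD1-labelled and 454, 539 and 477 CPM in control libraries. At day 7 the labels were far apart and at day 0 they overlapped. It was 8.91-fold lower in LSD1-labelled cells at day 7 (-3.16 ± 0.292, adjusted p = 1.03e-06) and did not pass at day 0 (0.49, interval -0.09 to 1.08, adjusted p = 0.2). Over time it fell 8.41-fold in LSD1-labelled cells (-3.07 ± 0.291, adjusted p = 7.83e-07), against 0.58 (interval -0.01 to 1.16, adjusted p = 0.0947) in control cells, and the interaction was -3.65 ± 0.392 (adjusted p = 8.19e-06). Replicate 1 was the highest day 0 library; without it the fall in LSD1-labelled cells was -2.51, the day 0 difference was -0.07 (adjusted p = 0.615), the interaction was -3.09 and the control rise passed (0.58, adjusted p = 9.81e-06). Exons of Polr2b, a subunit of RNA polymerase II, overlap those of Igfbp7 on the opposite strand, and Polr2b averaged 119.6 CPM in LSD1-labelled and 192 CPM in control libraries at day 7.

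The Igfbp7 start site also lay under an LSD1 peak in all 4 LSD1 lists, and its window is shown for the density of GC boxes, marked by capitals as above (RefSeq, GRCm38.p6, chr5:77407996-77408295, minus strand).
Igfbp7: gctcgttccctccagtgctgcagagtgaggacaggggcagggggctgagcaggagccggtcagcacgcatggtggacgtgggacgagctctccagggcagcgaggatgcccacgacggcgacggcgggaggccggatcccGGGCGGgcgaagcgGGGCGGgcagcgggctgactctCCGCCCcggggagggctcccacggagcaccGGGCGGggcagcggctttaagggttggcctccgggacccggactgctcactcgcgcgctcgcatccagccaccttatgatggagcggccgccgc
It holds 4 GC boxes, the most among the windows of the members, and 33 CpG dinucleotides. None of the windows of Igfbp3, Igfbp4 and Igfbp5 holds a GC box.

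Igfbp3, the main carrier of IGFs in serum, had 0.607, 0.568 and 1.09 CPM in LSD1-labelled and 14.7, 15.8 and 15.9 CPM in control libraries at day 7. The day 0 levels were 0, 2.40 and 3.43 CPM in LSD1-labelled and 3.77, 5.28 and 4.36 CPM in control libraries; the 0 allows up to 0.123 CPM, which is 3 counts in that library. The groups did not overlap on either day. Igfbp3 was lower in LSD1-labelled cells at day 7 (-4.35 ± 0.754, 20.3-fold, adjusted p = 0.000248) and did not pass at day 0 (-1.18, interval -2.60 to 0.23, adjusted p = 0.206). It rose over time in control cells (1.79 ± 0.619, adjusted p = 0.0299) and did not pass in LSD1-labelled cells (-1.37, interval -3.07 to 0.32, adjusted p = 0.134), and the interaction was -3.16 ± 0.991 (adjusted p = 0.0171). The control rise kept its size without any 1 of the 6 control libraries (1.68 to 1.92) but no longer passed (adjusted p between 0.0651 and 0.0982). The interaction no longer passed without replicate 3 of LSD1-labelled day 0 (-2.49, adjusted p = 0.0553). Without replicate 1 of LSD1-labelled day 0, where Igfbp3 is at 0, the fall over time in LSD1-labelled cells passed (-1.94, adjusted p = 3.58e-06), the day 0 difference passed (-0.62, adjusted p = 0.0274), the interaction was -3.73, and the control rise was 1.79 with an adjusted p of 3.17e-08.

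Igfbp5, a binding protein of muscle and bone that binds matrix, was close to absent, with 20 counts over the 3 LSD1-labelled and 32 over the 3 control libraries at day 7, and 55 over the LSD1-labelled and 12 over the control libraries at day 0. It passed no test, and the interval of the day 7 difference between the labels ran from -3.04 to 2.28. Counts differed widely between libraries of a group, at 43, 12 and 0 in LSD1-labelled day 0 libraries and 3, 2 and 27 in control day 7 libraries. Of the family outside these genes, Igfbp2 had 0 counts and Igfbp1 had 1 count in all libraries. Igfbp6, which prefers IGF2, averaged 1.75 CPM in LSD1-labelled and 8.01 CPM in control libraries at day 7, and 39.5 CPM in LSD1-labelled and 13.2 CPM in control libraries at day 0. It was lower at day 7 (-2.19, adjusted p = 0.000411) and higher at day 0 (1.58, adjusted p = 0.00525; 0.93 without replicate 1 of LSD1-labelled day 0). Igfals, a subunit of the serum IGF complex made mainly by liver, was lower in LSD1-labelled cells at both days (-3.57 and -3.08, adjusted p = 2.3e-05 and 0.000367), at no more than 5.51 CPM in any group; without replicate 2 of LSD1-labelled day 0 the day 0 value was -3.88. By CPM per kb, Igfbp7 was above Igfbp4 in LSD1-labelled day 0, control day 7 and control day 0 libraries, at 569, 602 and 404 against 48.7, 96.0 and 128, and below it in LSD1-labelled day 7 libraries, at 67.6 against 344. Shares were taken of the per-kilobase sum of Igfbp3, Igfbp4, Igfbp5 and Igfbp7, which leaves out Igfbp6. The share of Igfbp4 in that sum was 83.4% ± 1.29 in LSD1-labelled and 13.7% ± 1.59 in control libraries at day 7. At day 0 it was 9.96% ± 6.56 in LSD1-labelled and 24.1% ± 0.776 in control libraries. Without replicate 1, the LSD1-labelled day 0 shares averaged 13.7% for Igfbp4 and 86% for Igfbp7.

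**Figure D3:**
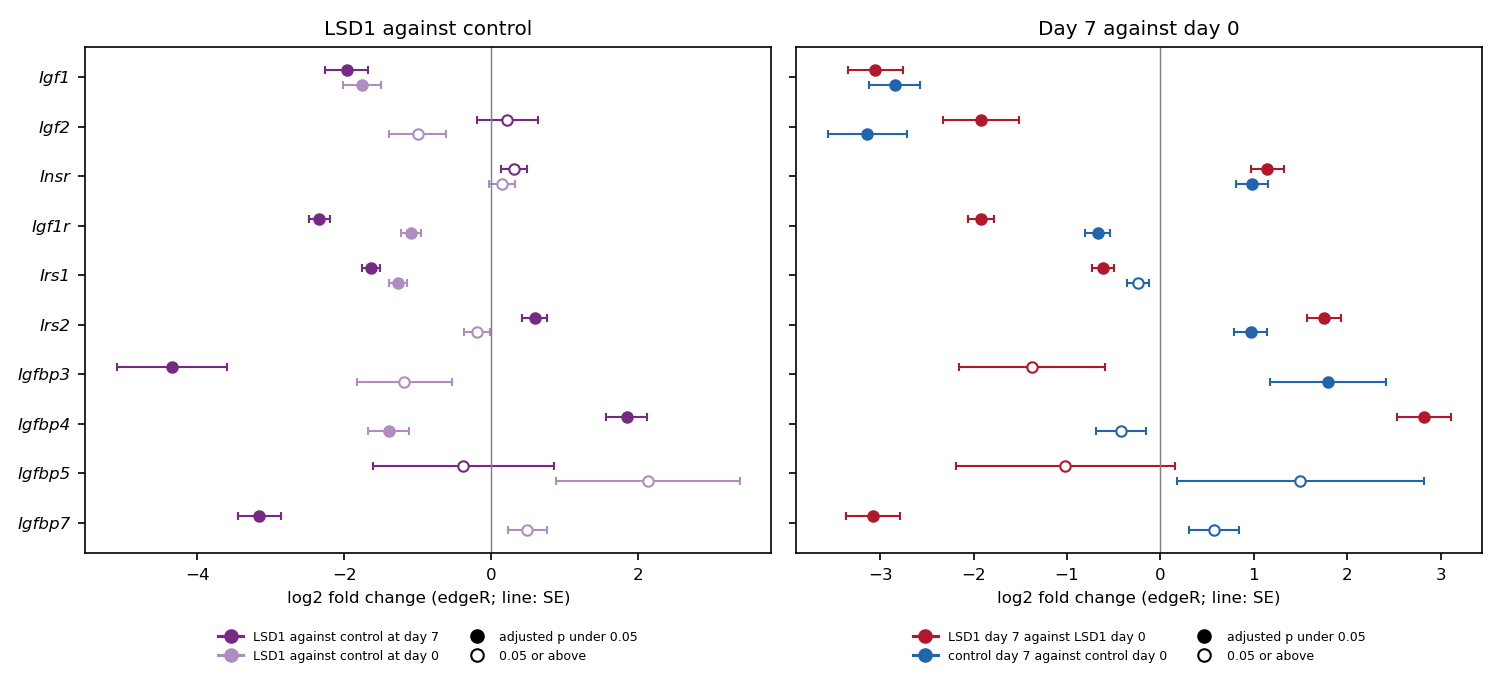
log2 fold changes (x axis; lines are SE) of the 10 genes between the labels (left) and between day 7 and day 0 (right), from the edgeR fit on 12 libraries; filled points have an adjusted p under 0.05. The points of Igfbp4 lie on opposite sides of 0 at day 7 and day 0, and those of Igf1, Igf1r and Irs1 are below 0 at both days.

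For each gene, the 3 genes whose log2 CPM ran closest to it over the 12 libraries were found among 10546 genes, after centring each on its own mean. Insr ran closest to Tmem33, with a root mean square difference of 0.119 on the log2 scale, and Igf1r to Peak1 (0.128), a kinase-like scaffold of the cytoskeleton. Irs1 ran closest to Hspa13 (0.153), Igfbp7 to Fbxo2 (0.246), Igfbp4 to Strip2 (0.338) and Igf1 to Flrt3 (0.342). The differences for Igfbp3 (Sphk1, 0.654) were larger than for the other genes named here. These are descriptions over libraries that share their groups.

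The proteases that free IGFs from binding proteins, with their inhibitors, held 1 higher and 3 lower genes of 7 tested in LSD1-labelled cells at day 7 and 1 and 2 at day 0, with medians of -1.40 and -0.13; of all tested genes 30.2% were higher and 33.4% lower at day 7, and 12.8% and 13.0% at day 0. Pappa, the protease for IGFBP4, averaged 8.55 CPM in LSD1-labelled and 25.3 CPM in control libraries at day 7 (-1.56 ± 0.356, adjusted p = 0.00193). Stc1, whose product inhibits PAPP-A, was lower at day 7 (16.6 CPM in LSD1-labelled, 63.3 CPM in control libraries, -1.93, adjusted p = 1.15e-07) and at day 0 (17.5 CPM in LSD1-labelled, 49.4 CPM in control libraries, -1.5, adjusted p = 1.3e-05). Stc2, the other stanniocalcin gene of the list, was higher at day 0 (2.03 CPM in LSD1-labelled, 0.251 CPM in control libraries, 3.0 ± 0.592, adjusted p = 0.00292) and did not pass at day 7 (-1.10, adjusted p = 0.134; adjusted p = 0.0357 without replicate 1 of LSD1-labelled day 0). Adamts1, a secreted metalloprotease, averaged 21.9 CPM in LSD1-labelled and 413.9 CPM in control libraries at day 7 (-4.24, adjusted p = 1.21e-07). It was also lower at day 0, at 283 CPM in LSD1-labelled and 894.7 CPM in control libraries (-1.66, adjusted p = 0.000853). Htra3, a secreted serine protease, was the higher gene of the list at day 7 (114.8 CPM in LSD1-labelled, 40.6 CPM in control libraries, 1.5, adjusted p = 7.87e-06).

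In all, 83 further genes of the pathway were tested of 91 listed, and 32 were higher and 20 lower in LSD1-labelled cells at day 7 (background 30.2% and 33.4%), 13 and 16 at day 0 (12.8% and 13.0%). Over time 33 were higher and 32 lower in LSD1-labelled cells (32.6% and 37.2%) and 20 and 23 in control cells (23.7% and 24.6%). The interaction was positive for 30 and negative for 20 (23.9% and 28.1%). Among 12 other receptor substrates, edgeR called 4 higher and 0 lower at day 7 (median 0.01; 1 was lower at an unadjusted p under 0.05 and 0 in DESeq2). Sh2b2, the APS adaptor, averaged 338 CPM in LSD1-labelled and 66.0 CPM in control libraries at day 7 (2.36 ± 0.156, adjusted p = 5.66e-08). At day 0 it averaged 12.4 CPM in LSD1-labelled and 6.33 CPM in control libraries.

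Of 14 genes of PI3K, AKT and mTORC2, 5 were higher and 4 lower at day 7 (median 0.13, background 30.2% and 33.4%). At day 0, 1 was higher and 5 were lower (median -0.18, background 12.8% and 13.0%). Akt2, the AKT isoform tied to glucose uptake, was higher in LSD1-labelled cells at day 7 (257 CPM in LSD1-labelled, 69.8 CPM in control libraries, 1.88 ± 0.112, adjusted p = 2.11e-08) and lower at day 0 (84.7 CPM in LSD1-labelled, 120.2 CPM in control libraries, -0.51, adjusted p = 0.00486). Akt1 was lower at day 0 (-0.61, adjusted p = 0.00125). Pik3r1, the main regulatory subunit of PI3 kinase, rose over time in LSD1-labelled cells (1.03, adjusted p = 0.000147) and in control cells (1.99, adjusted p = 1.92e-06), with an interaction of -0.96 (adjusted p = 0.00524), and was lower in LSD1-labelled than in control cells at day 7 (244 CPM in LSD1-labelled, 531.9 CPM in control libraries, -1.12, adjusted p = 9.58e-05). Of the catalytic subunits, Pik3cb was higher (1.51) and the leukocyte-type Pik3cd lower (-3.06) at day 7, and at day 0 Pik3cb was lower (-0.66, adjusted p = 0.00807) and Pik3cd higher (0.61, adjusted p = 0.0192). The day 0 call of Pik3cd was lost without any 1 control day 0 library (adjusted p between 0.0513 and 0.0766). In the TSC and mTORC1 list 8 of 11 genes were higher and 1 lower at day 7 (median 0.55, background 30.2% and 33.4%). Eif4ebp1, the translation repressor that mTORC1 phosphorylates, averaged 996 CPM in LSD1-labelled and 333 CPM in control libraries at day 7 (1.58 ± 0.133, adjusted p = 4.34e-07). At day 0, 4 genes of that list were higher and 2 lower (background 12.8% and 13.0%).

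Foxo1, the AKT-inhibited factor that acts on Irs2 and Insr in other tissues, rose over time in LSD1-labelled cells (2.74, adjusted p = 3.25e-10) and in control cells (1.66, adjusted p = 1.14e-07). It averaged 229 CPM in LSD1-labelled and 124.7 CPM in control libraries at day 7 (0.87 ± 0.107, adjusted p = 1.18e-05). Of the 4 FOXO genes, Foxo1 was the higher and Foxo6 the lower one at day 7, and at day 0 edgeR called 0 (2 at an unadjusted p under 0.05, 0 in DESeq2; without replicate 1 of LSD1-labelled day 0, Foxo6 passed at 0.56, adjusted p = 0.023). Among 14 tested inhibitors of insulin signalling, 4 were higher and 5 lower at day 7 (median -0.13, background 30.2% and 33.4%). At day 0, 3 were higher and 1 lower (background 12.8% and 13.0%). Trib3, a pseudokinase that binds AKT, averaged 490.3 CPM in LSD1-labelled and 39.1 CPM in control libraries at day 7 (3.65 ± 0.279, adjusted p = 1.92e-07). Socs1 and Socs3, which target the receptor and its adaptors, were lower at day 7 (-3.37 and -2.43, adjusted p = 7.59e-07 and 1.22e-07).

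Of 14 genes by which insulin acts on glucose uptake, glycogen and lipolysis, 8 were higher and 1 lower in LSD1-labelled cells at day 7 (median 0.78; background 30.2% and 33.4%), and 2 and 2 at day 0 (median 0.04; background 12.8% and 13.0%). Slc2a4, which encodes GLUT4 and is also one of the adipocyte markers summed above, averaged 301 CPM in LSD1-labelled and 35.4 CPM in control libraries at day 7 (3.09 ± 0.161, adjusted p = 7.28e-09). At day 0 it averaged 0.0482 CPM in LSD1-labelled and 0.173 CPM in control libraries. Gys1, glycogen synthase, was higher at both days (1.51 and 0.58, adjusted p = 2.62e-07 and 0.00358). Ppp1r3c, which targets a phosphatase to glycogen, was higher in LSD1-labelled cells at day 7 (0.83, adjusted p = 2.73e-05) and lower at day 0 (17.3 CPM in LSD1-labelled, 63.2 CPM in control libraries, -1.87, adjusted p = 5.36e-07), with an interaction of 2.69 (adjusted p = 6.75e-08). Of the 3 tested genes of RNA-binding proteins named for Igf2 mRNA, Igf2bp1 (-0.37, adjusted p = 0.00884) and Igf2bp3 (-0.92, adjusted p = 9.16e-06) were lower at day 7, and Igf2bp2 did not pass (-0.34, adjusted p = 0.0596; it passed without LSD1-labelled day 0 replicate 1 or 2 or control day 7 replicate 3, adjusted p = 0.00197, 0.0455 and 0.0324). At day 0 edgeR called 0 of them (1 at an unadjusted p under 0.05, 0 in DESeq2; without replicate 1 of LSD1-labelled day 0, Igf2bp1 passed at 0.29, adjusted p = 0.023).

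**Figure D4:**
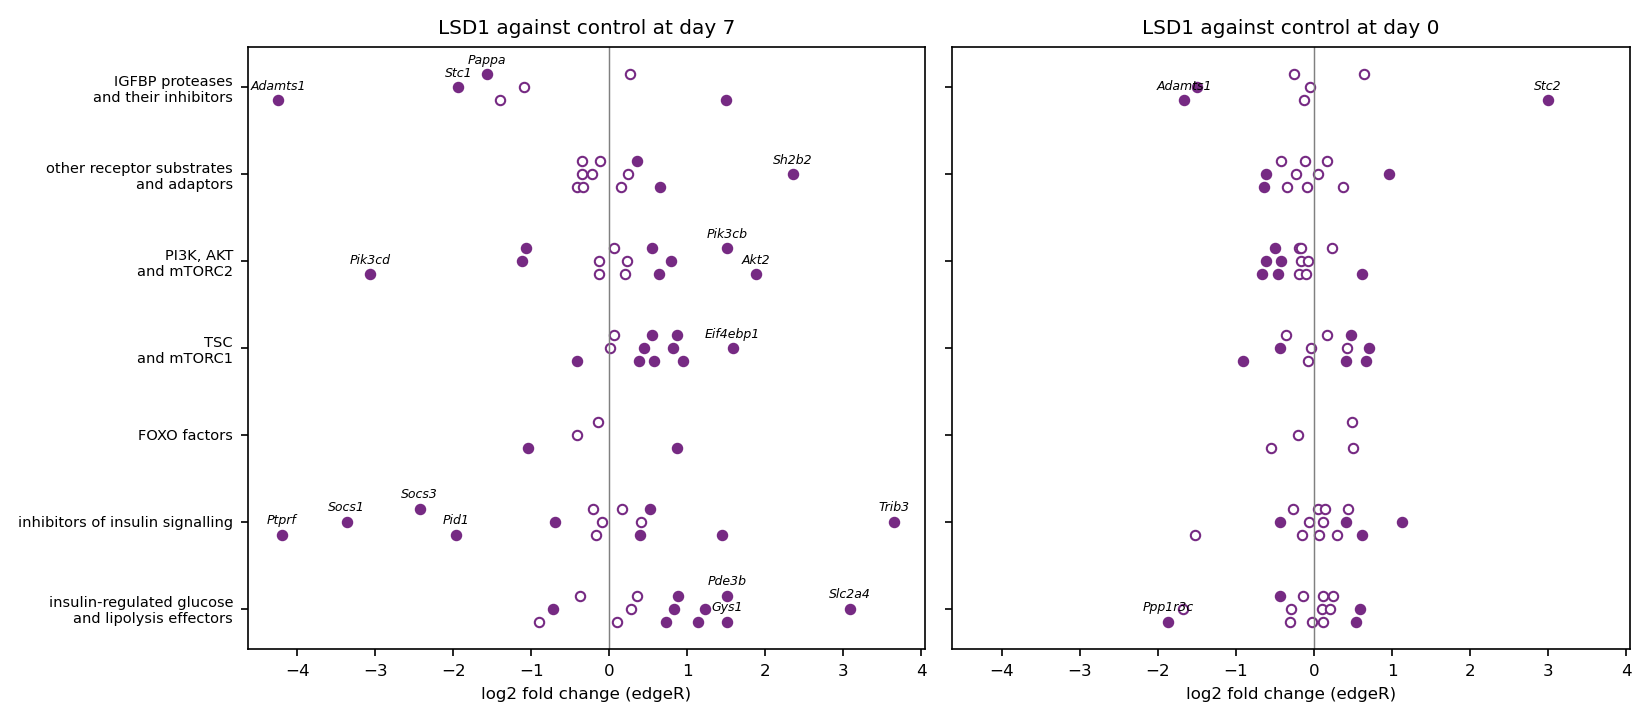
log2 fold changes (x axis) between LSD1-labelled and control cells at day 7 (left) and day 0 (right), by list (y axis). Points are the tested genes of the lists named there, apart from the genes not reported here. The receptor, IRS adaptor, binding protein and Igf2 mRNA lists are not drawn, and the small vertical offsets only separate points. Filled points have an adjusted p under 0.05, and those beyond 1.5 in size are named. Slc2a4, Trib3 and Sh2b2 lie far to the right and Adamts1, Socs1 and Pik3cd far to the left at day 7.

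LSD1 binding at these genes was read from the deposited peak lists, in mm10 coordinates. A peak within 1 kb of a start site was listed for 6 of the 10 genes in LSD1-labelled cells at day 7, where 47.6% of 23000 genes had one. For LSD1-labelled day 0 it was 5 of 10 (background 42.0%), for control day 7 it was 5 of 10 (34.6%) and for control day 0 it was 3 of 10 (13.3%). Irs2, Igf1r and Igfbp7 had such a peak in all 4 lists. Insr had one in all but control day 0, Irs1 in both day 7 lists only, Igfbp4 in LSD1-labelled day 7 only and Igf1 in LSD1-labelled day 0 only. Igf2, Igfbp3 and Igfbp5 had none in any list. No Nrf1 peak lay within 1 kb of a start site of the 10 genes at day 7 (background 7.52%) or day 0 (6.96%); the single Nrf1 peak in these genes lay 25668 bases into Igfbp7 in the day 0 list. For the Nrf1 day 7 sample the title and the genotype label name different cells. The 4 LSD1 lists hold 27221, 13997, 8303 and 3024 peaks in the order named, each from 1 sample of unstated depth, so a peak listed in one and not in another shows no change.

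The scores below are the authors' own for each peak and rank peaks within a list only. At Irs2 the peak over the start site in LSD1-labelled day 7 cells was 8111 bases wide (chr8:11001995-11010105), reached into the gene body beyond the E-box and heptamer shown above, and scored 2878.66, above 98.7% of that list. In control day 7 cells it was 5328 bases wide and scored above 98.8% of its list, in LSD1-labelled day 0 cells above 91.4% and in control day 0 cells above 74.4%. The Irs1 start-site peak (chr1:82289880-82292008 in LSD1-labelled day 7 cells) scored above 96.5% of that list and above 80.8% in control day 7 cells. The Irs2 peak stands near the top of both day 7 lists. The RNA of Irs2 was higher and that of Irs1 lower in LSD1-labelled cells at day 7, and a link between peaks and RNA was not tested.

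At Igf1r the start-site peak scored above 88.8% of the LSD1-labelled day 7 list, 32.9% of the LSD1-labelled day 0 list, 95% of the control day 7 list and 97.9% of the control day 0 list. At Igfbp7 these shares were 89.6%, 69.8%, 48.1% and 81.7%. At Insr, which had 3 such lists, the shares were 78.9% in LSD1-labelled day 7, 18.9% in LSD1-labelled day 0 and 44.7% in control day 7 cells. Igfbp4 carried peaks inside the gene in 3 lists, and the one that scored above 81.8% of the LSD1-labelled day 7 list began 5720 bases after the start site. The LSD1-labelled day 7 list held start-site peaks at Igfbp4 and Irs2, whose RNA was higher in LSD1-labelled cells at day 7. It also held them at Igf1r, Irs1 and Igfbp7, whose RNA was lower, and at Insr, which did not pass. Igf1 and Igfbp3, also lower, had no start-site peak in either day 7 list. Whether binding relates to these RNA differences was not tested.

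**Figure D5:**
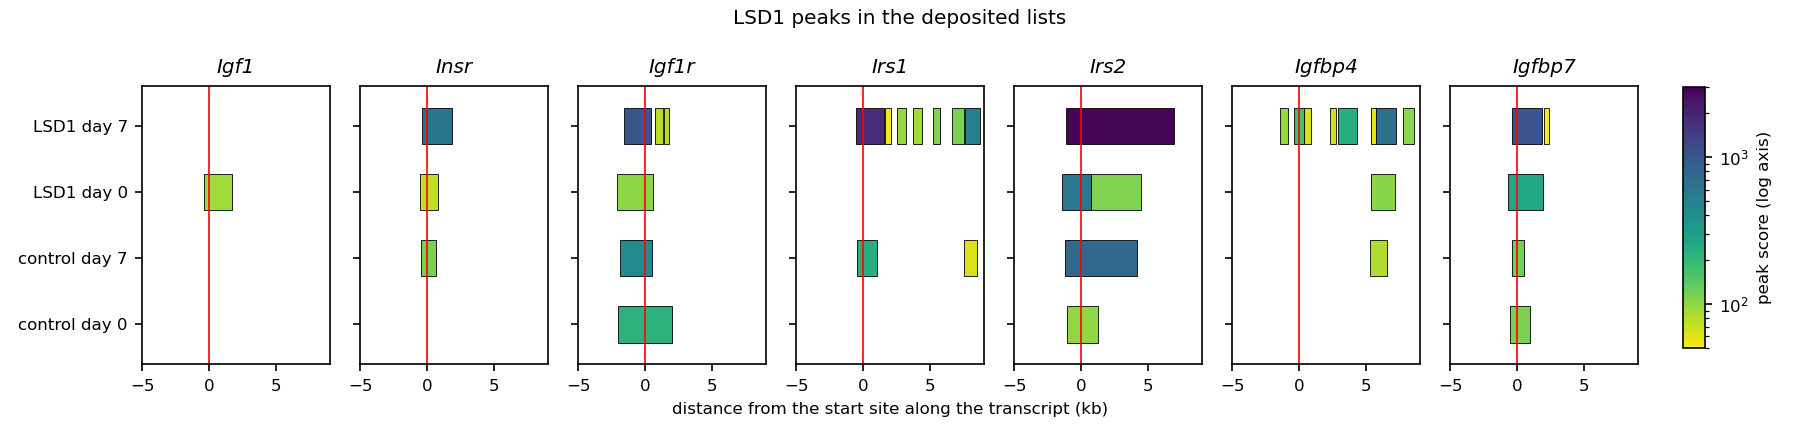
LSD1 peaks of the deposited lists around the start sites (red line) of the 7 genes with a start-site peak in any list; the x axis is the distance along the transcript in kb, rows are the lists, and the colour is the authors' peak score on a log axis. The peak at Irs2 covers the start site in all 4 lists and is the widest in LSD1-labelled day 7 cells.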

How the data were processed

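The deposited count files hold the authors' whole-number read counts per RefSeq transcript for 12 RNA-seq libraries, with no normalization. The submitters' processing notes name mm10, TopHat2 version 2, HOMER, edgeR and DESeq 1.8.3 with no role; the counting rule and its use of strand are not given in the sources used here. The deposited peak lists hold the authors' score per peak; the notes name MACS 1.41 and Bowtie2. Of 30521 rows, 29144 accessions were named from RefSeq and 177 from GENCODE; 1200 unnamed rows held 0.896% of counts. As isoforms share reads, 1 transcript stands for each gene, the one with most counts on average. H19 matched no row.

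Genes passing filterByExpr were fitted over all 12 libraries with 4 group means (edgeR 4.0.16, R 4.3.3; TMM scaling, robust quasi-likelihood test, two-sided, Benjamini-Hochberg adjustment over 13356 genes, threshold 0.05). SE is the log2 fold change divided by the root of F. CPM uses TMM-scaled library sizes; levels of different genes are compared per kilobase of transcript. The limits set on 0 counts cover counting error only. The fit was tested on simulated counts. A peak was assigned to a gene within 1 kb of an annotated start site (GRCm38.p6, the assembly of mm10). Alternatives were RLE scaling, no TMM, no filter, DESeq2 1.42.0, summed transcripts, only the groups compared, a replicate block and each library left out.

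All 10 genes are reported in every comparison. Of each pathway list the text draws on at most 3 genes per direction and comparison. They have the smallest adjusted p among called genes averaging at least 5 CPM. Igf2r and Igfbp6 were chosen after their values were seen, as were Igfals, Irs3 and Stc2, which all lie below that level. So were the genes at or near 0 counts and the genes labelled in the plot by list. The members and lists were chosen with earlier results of these data known. The counts per list cover every tested gene, and 2 genes of the lists are not reported here by name or in the plot.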

Additional observations from a re-analysis of the deposited data

Results flagged for a closer look

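For 5 of the 10 genes the change between day 7 and day 0 differed between LSD1-labelled and control cells by the interaction term of the edgeR fit. Of all tested genes, 23.9% had a positive and 28.1% a negative interaction at the same threshold, so the count is near the background. The interaction on the log2 scale was -3.65 ± 0.392 (SE) for Igfbp7 (adjusted p = 8.19e-06), which was lower at day 7 in 3 of 3 LSD1-labelled libraries than in any day 0 library, and 3.24 ± 0.389 for Igfbp4 (adjusted p = 2.02e-05). It was -1.25 ± 0.192 for Igf1r (adjusted p = 0.000151), -3.16 ± 0.991 for Igfbp3 (adjusted p = 0.0171) and 0.78 ± 0.247 for Irs2 (adjusted p = 0.0178). Without replicate 1 of LSD1-labelled day 0 the values were -3.09 for Igfbp7, 2.9 for Igfbp4, -1.23 for Igf1r, -3.73 for Igfbp3 and 0.60 for Irs2. Irs2 lost its call without replicate 2 of LSD1-labelled day 7 (adjusted p = 0.0535) and with library totals as the only scaling (adjusted p = 0.247). Igfbp3 lost its call without replicate 3 of LSD1-labelled day 0 (adjusted p = 0.0553) and in DESeq2 (adjusted p = 0.0782). The sum of adipocyte markers and that of preadipocyte and fibroblast markers also changed by different amounts under the labels, and their part in these differences was not tested.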

How the results depend on the processing

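Of the 937 fold changes of single genes recomputed under alternatives, none changed sign while called; 902 stayed on the same side of the threshold, 15 lost and 20 gained a call. The number of genes called between the labels at day 0 was 3449, and 1862 when only the 6 day 0 libraries were fitted; leaving out 1 library gave 2172 (control day 0 replicate 3) to 6565 (LSD1-labelled day 0 replicate 1), and the members called there numbered 4 to 7. These alternative fits used fewer than 12 libraries, and the cause of the range was not tested. Members called by leaving out 1 library ranged 8 to 9 in LSD1-labelled cells over time, 5 to 9 in control cells over time, 6 to 8 between labels at day 7 and 4 to 7 for the interaction, while all genes called ranged 8790 to 10288, 5249 to 8532, 7660 to 9953 and 6304 to 8746. Igfbp3 over time in control cells lost its call with no filter (1.81, adjusted p = 0.07) and in DESeq2 (1.77, adjusted p = 0.153), as did its interaction in DESeq2 (-3.11, adjusted p = 0.0782). Igfbp7 at day 0 gained one without LSD1-labelled day 0 replicate 2 (0.74, adjusted p = 0.0433), and Igf2 at day 0 one in DESeq2 (-1.01, adjusted p = 0.0323). Fitting only the groups compared gave Insr a call at day 7 (0.30, adjusted p = 0.00982). Over time in control cells it gave calls to Igfbp4 (-0.38, adjusted p = 0.000269), Igfbp7 (0.62, adjusted p = 7.05e-06) and Irs1 (-0.20, adjusted p = 0.0407). There 9 members and 8592 genes were called, against 6 members and 6447 genes in the fit on 12 libraries. Between the labels at day 0 the same setting called 3 members, against 4, as Igfbp4 lost its call (-1.36, adjusted p = 0.0543). Library totals with no TMM moved the median log2 fold change of all genes to -0.31 over time in LSD1-labelled cells, 0.15 in control cells, -0.30 between the labels at day 7, 0.16 at day 0 and -0.45 for the interaction. With them 36.1%, 61.9%, 33.9%, 70.8% and 25% of calls in those comparisons were higher, against 46.7%, 49.1%, 47.4%, 49.6% and 46.0% with TMM. They gave Irs1 an interaction (-0.77, adjusted p = 0.00304) and Igfbp7 a rise over time in control cells (0.73, adjusted p = 0.0281). Same-numbered replicates did not deviate together (correlations between -0.249 and 0.114); a replicate block gave Igf2 a call at day 0 (-1.17, adjusted p = 0.049) and changed no other call of the 10 genes. Counting only peaks with a score of at least 100 left 3 of the 10 genes with a start-site peak in the LSD1-labelled day 0 list, and 2 in the control day 0 list. The counts stayed at 6 in the LSD1-labelled and 5 in the control day 7 list. The share of all genes at that score was not computed, so the drop cannot be read as particular to the 10 genes. Igfbp5 in every group, and Igfbp3 in LSD1-labelled cells, rest on few counts that also differ widely between libraries.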
